A study of Mus musculus with 9 samples.

Results

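The genes described here carry glucose into the cell, break it down to pyruvate and lactate, and store it as glycogen. There were 34 genes on the list, of 41128 in the deposited table. They were chosen by name from pathway knowledge, but with earlier results of these data known. They comprise 2 glucose transporters, 2 hexokinases, 10 genes of upper glycolysis from glucose 6-phosphate to the triose phosphates, 7 genes of lower glycolysis from glyceraldehyde 3-phosphate to pyruvate, 9 genes that handle lactate and pyruvate, and 4 genes of glycogen metabolism. By symbol, 32 of them were found in the table, and Gapdh and Eno1, whose rows carry no symbol, were found by Ensembl ID. A second row with the symbol Pgk1 belonged to the retrogene Pgk1-rs7 and was left out.

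Glycolysis converts glucose to pyruvate in the cytosol, and pyruvate is either reduced to lactate or taken into mitochondria, where pyruvate dehydrogenase turns it into acetyl-CoA. The fetal heart relies largely on glycolysis and lactate, and after birth cardiomyocytes turn to fatty acids as their main fuel. Hypertrophied and failing hearts are known to take up and use more glucose again, and part of the pathway is under the control of the hypoxia-inducible factor HIF-1.

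Nuclear RNA was sequenced from PCM-1-positive nuclei, which are nuclei of cardiomyocytes sorted with an antibody, from the left ventricle of FVB mice at an age of 12 days. The 3 groups compared had 3 libraries each, taken as separate mice. One was cKO mice with score 1 for cardiac stress, whose labels also name left ventricular volume overload, called stressed cKO mice here (S1, S2 and S3). The others were unstressed cKO mice (U1, U2 and U3) and control mice (C1, C2 and C3), labelled wildtype and given in the methods as carrying a floxed and a wild-type Fstl1 allele. All cKO mice had the genotype Fstl1 KO/fl;Tie2-Cre. Cre removes the secreted protein follistatin-like 1 from endothelial and endocardial cells and their descendants, and the floxed allele stays intact in cells without Cre. The cardiomyocytes sequenced here were thus not the cells in which Cre acts. By this genotype they still carried a KO allele beside the floxed one, where control cardiomyocytes carried a wild-type allele. The title of U3 also carries the word "het", while its genotype label matches the other cKO mice, and it was kept in its labelled group. The paper gives the unstressed cKO mice as male and the control mice as female, so genotype and sex cannot be told apart between these groups. Of the listed genes, 4 (Pfkfb1, Pgk1, Pdha1 and Phka1) lie on the X chromosome. The stress score was assigned by heart weight relative to body weight, and no measurement of load in these mice was used here. Each library carries its own mouse number, although a passage of the paper counts fewer cKO mice than there are cKO libraries. The mouse numbers in the labels begin in 2 ways, called number series A (S1, S2, U1, U2, U3 and C1) and B (S3, C2 and C3), and what they stand for is not given.

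Between 10805513 and 12698502 reads could be recovered per library of stressed cKO mice, between 8804295 and 11341764 per unstressed library and between 8262684 and 12597012 per control library. The summed level of 7 cardiomyocyte markers was 2280240 to 3796380 normalized counts over the 9 libraries, and that of 8 endothelial and endocardial markers ran from 1046 to 1238 over the stressed cKO libraries, from 843 to 1165 over the unstressed and from 822 to 865 over the control libraries. The part of these other cells in the results was not tested. The libraries S2 and U3 stood apart by their mitochondrial ribosomal RNA, which took 3.81% and 3.84% of reads against 0.941 to 1.15% in the other 7 libraries. In a bulk sample of nuclei, fewer nuclei that express a gene and less RNA per nucleus cannot be told apart.

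Which isoforms of the pathway cardiomyocyte nuclei contained at this age was read from levels per kilobase of exon, averaged over the 9 mice. Eno3, the muscle enolase, had the highest level at 1682 normalized counts per kb, followed by Pygm, the muscle glycogen phosphorylase, at 822. Hk2, the insulin-responsive hexokinase that traps glucose in the cell, followed at 469 per kb, with the muscle phosphofructokinase Pfkm at 461 and the brain-type phosphorylase Pygb at 460.3 close together. Their ranges over the 9 libraries overlapped (283 to 614 for Hk2, 319 to 641 for Pfkm and 278 to 683 for Pygb), so no order is given among these 3 genes. Pfkfb2, the heart isoform of the enzyme that makes and removes the phosphofructokinase activator fructose 2,6-bisphosphate, had 387 per kb. The range of Pfkfb2 (261 to 556) overlapped those of all 3, since the order given elsewhere is that of the means alone. The 10 highest were completed by the muscle phosphoglycerate mutase Pgam2 at 339, the pyruvate dehydrogenase kinase Pdk2 at 336, the insulin-regulated glucose transporter Slc2a4 (GLUT4) at 315 and the phosphorylase kinase subunit Phka1 at 309 per kb. When levels were set per kilobase of the gene body, as may fit nuclear RNA with introns, 7 of these 10 stayed among the 10 highest.

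At the low end of the list, Gapdh, a glycolytic enzyme often used as a loading control, had a level of only 28.8 per kb, and Slc2a1 (GLUT1), the transporter of fetal heart and many other tissues, had 7.33. Pfkfb3, the isoform of the phosphofructokinase activator enzyme that is induced by hypoxia, had 4.38 per kb. Aldoc, the brain aldolase, had the lowest level at 1.99 per kb, with a count of 0 in 6 of 9 libraries. It was the only gene of the 34 that did not reach the level needed for testing by limma and edgeR. Low values of Gapdh, Pgk1, Pgam1, Eno1 and Ldha carry an uncertainty of counting, because 25.1%, 53.9%, 36.2%, 26.0% and 9.26% of their 50-base stretches also occur in other genes and pseudogenes. For 11 of the 34 genes, among them Slc2a4, Hk2, Eno3, Pdk1, Slc16a8 and Phka1, no 50-base stretch was shared. Exons of Gapdh, Pfkm, Aldoa and Pfkfb1, among others of the list, overlap exons of Iffo1, Senp1, Fam57b and Apex2 on the other strand. Iffo1 had 236 to 508 normalized counts, more than Gapdh in every library. Whether reads were counted by strand is not stated.

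**Figure D1:**
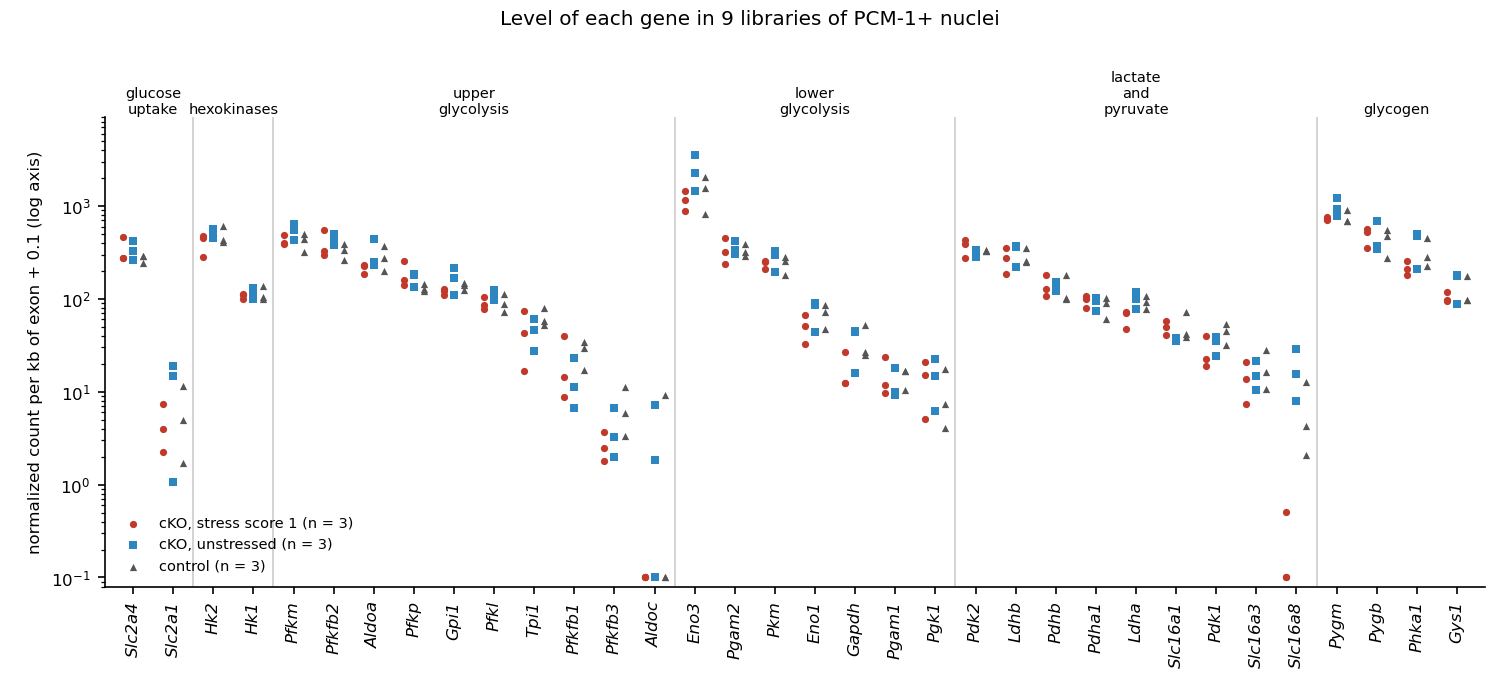
Normalized counts per kilobase of exon (plus 0.1, log axis) of the 34 genes, grouped by role and ordered by mean level; each point is 1 mouse, with stressed cKO mice as red circles, unstressed cKO mice as blue squares and control mice as grey triangles. Eno3 was highest at a mean of 1682 per kb, and Slc16a8 is the gene whose 3 stressed cKO mice sit at or near 0 while the 6 other mice lie between 1.97 and 28.8 per kb.

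In each of 12 pairs of isoenzymes or transporters, 1 gene had the larger per-kb level in all 9 libraries. Slc2a1 made up 1.24 ± 0.415% of the per-kb level of both glucose transporters in stressed cKO mice, 3.03 ± 2.30% in unstressed cKO mice and 2.10 ± 1.61% in control mice (SD, n = 3 each). Hk1, the more general hexokinase, made up 21.6 ± 3.72% of the hexokinase pair in stressed cKO mice, 18.1 ± 0.522% in unstressed cKO mice and 19.3 ± 0.829% in control mice. The non-muscle enolase Eno1 and mutase Pgam1 stayed under 10% of their pairs in every library. Ldha, the lactate dehydrogenase subunit that prevails in glycolytic tissue, made up 20.03 ± 7.96% of the pair with Ldhb in stressed cKO mice, 23.8 ± 2.502% in unstressed cKO mice and 24.6 ± 4.40% in control mice. Pdk1, the HIF-responsive kinase that switches pyruvate dehydrogenase off, made up 6.90 ± 2.23% of the pair with Pdk2 in stressed cKO mice, 9.40 ± 2.53% in unstressed cKO mice and 11.6 ± 2.48% in control mice. Of 12 such ratios, which do not depend on the scaling of a library, 0 passed an adjusted p of 0.05 between stressed cKO mice and the 6 other mice. Between stressed cKO mice and the 6 other mice, the smallest exact permutation p (two-sided) was 0.0476, adjusted p = 0.286 over 12 ratios, for Hk1 over Hk2 (log2 difference 0.25) and for Pdk1 over Pdk2 (-0.67). The design of 3 against 6 mice allows no exact p below 0.0119, so a single changed ratio could not pass after adjustment over 12. That of 3 against 3 mice allows none below 0.1, so no ratio could pass between 2 groups. These tests therefore cannot tell whether a ratio changed.

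**Figure D2:**
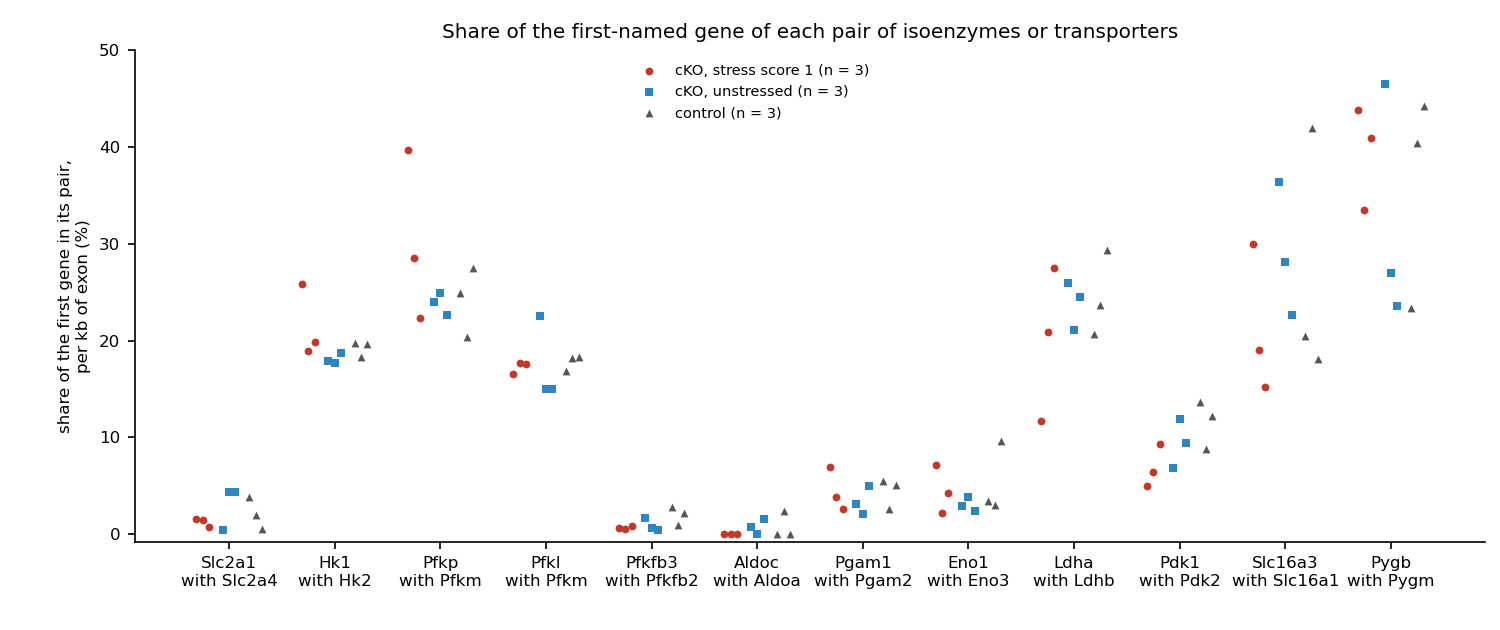
Share of the first-named gene in the per-kb level of 12 pairs of isoenzymes or transporters, in percent; each point is 1 mouse, with stressed cKO mice as red circles, unstressed cKO mice as blue squares and control mice as grey triangles. The groups overlap in most pairs, and the Pdk1 share averaged 6.90% in stressed cKO mice and 11.6% in control mice.

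The comparison of stressed cKO with control mice asks whether cardiac stress was accompanied by a change of glucose metabolism genes in cardiomyocyte nuclei. By limma on log2(normalized count + 1), with adjustment over 13454 genes, 0 of the 33 genes tested passed an adjusted p of 0.05, where 0% of all genes did. DESeq2 on the recovered reads called 0 (0.19% of all genes), and edgeR 0 (0% of all genes). At an unadjusted p under 0.05, limma gave 2 of 33 lower and 0 higher, beside 3.29% of all genes lower and 4.38% higher. The groups did not overlap for 2 of 33 genes, both lower (6.06%), beside 5.28% of all genes lower and 5.8% higher. Fitted changes were above 0 for 10 of 33 genes with a median of -0.11 on the log2 scale, beside 49.3% and -0.01 over all genes, and 30 of 33 were smaller than 1 in size. Without C3 the median was -0.18.

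Among the lactate and pyruvate genes, Slc16a8 (MCT3) had the smallest p of the list. It encodes a proton-coupled lactate transporter best known from the retinal pigment epithelium, and lies at chromosome 15, 79251014 to 79254761 of mm10, with no exon of another gene over its exons. Its normalized counts were 0, 0 and 0.937 in stressed cKO mice and 9.45, 4.49 and 28.5 in control mice, with 35.4, 17.9 and 65.7 in unstressed cKO mice. All 3 stressed cKO mice were thus below each of the 6 other mice, at a level of 0 or 1 read per library. Summed over mice there was 1 read in stressed cKO mice, 126 in unstressed cKO mice and 43 in control mice. Scaled by size factors, stressed cKO mice held 0.0209 of the control level (95% counting interval 0.000518 to 0.123) and 0.00754 of the unstressed cKO level (0.000189 to 0.0428), where the interval covers counting error only and not the spread between mice. The fitted log2 fold change against control mice was -3.26 (SE 1.03, adjusted p = 0.474 by limma), and DESeq2 gave an adjusted p of 0.262. Among stressed cKO and control mice, only C3 reached the level needed for testing by limma and edgeR. The gene was tested because U1, U2 and U3 also reached it.

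Ldha, which turns pyruvate into lactate, had 155, 241 and 231 normalized counts in stressed cKO mice and 306, 256 and 355 in control mice. The lowest control mouse lay only just above the highest stressed cKO mouse. Its log2 fold change was -0.56 (SE 0.31, adjusted p = 0.714 by limma). Pdk1 had 173, 147 and 308 in stressed cKO mice and 415, 249 and 351 in control mice, with S3 above C2, and a log2 fold change of -0.73 (SE 0.34, adjusted p = 0.647 by limma). Within number series A the Pdk1 difference was -1.37, while it was 0.06 within series B. Ldha was lower in stressed cKO mice within both number series (-0.66 and -0.38).

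In lower glycolysis, Gapdh had 109, 50.4 and 50.6 normalized counts in stressed cKO mice and 214, 109 and 102 in control mice. S2 and S3 lay below all controls and S1 lay within their range, with a log2 fold change of -1.02 (SE 0.49, adjusted p = 0.654 by limma). In upper glycolysis, the platelet-type phosphofructokinase Pfkp had 3438, 2151 and 1871 in stressed cKO mice and 1951, 1719.9 and 1623 in control mice. Its exons overlap those of Pitrm1 on the other strand. S1 was far above all other libraries for this gene and S3 was within the control range, and the log2 fold change was 0.45 (SE 0.23, adjusted p = 0.691 by limma). Pfkfb3 had 27.1, 12.8 and 17.8 in stressed cKO mice and 83.9, 24.2 and 43.7 in control mice, and its log2 fold change of -1.24 (SE 0.71) rested on low counts (adjusted p = 0.723 by limma). Over the 9 upper glycolysis genes tested, the fitted changes ran from -1.24 to 0.45, with 3 above 0. The glucose transporter Slc2a4 had 1596, 954 and 964 in stressed cKO mice and 1014, 844 and 999 in control mice. These overlapped, with a log2 fold change of 0.26 (SE 0.25, adjusted p = 0.851 by limma). Hk2 averaged 2406 ± 620.5 in stressed cKO mice and 2886 ± 677 in control mice (SD, n = 3 each). For the 4 glycogen genes, which encode the synthase Gys1, the phosphorylases Pygm and Pygb and the kinase subunit Phka1, the fitted changes ran from -0.51 (Phka1) to 0.18 (Pygb).

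**Figure D3:**
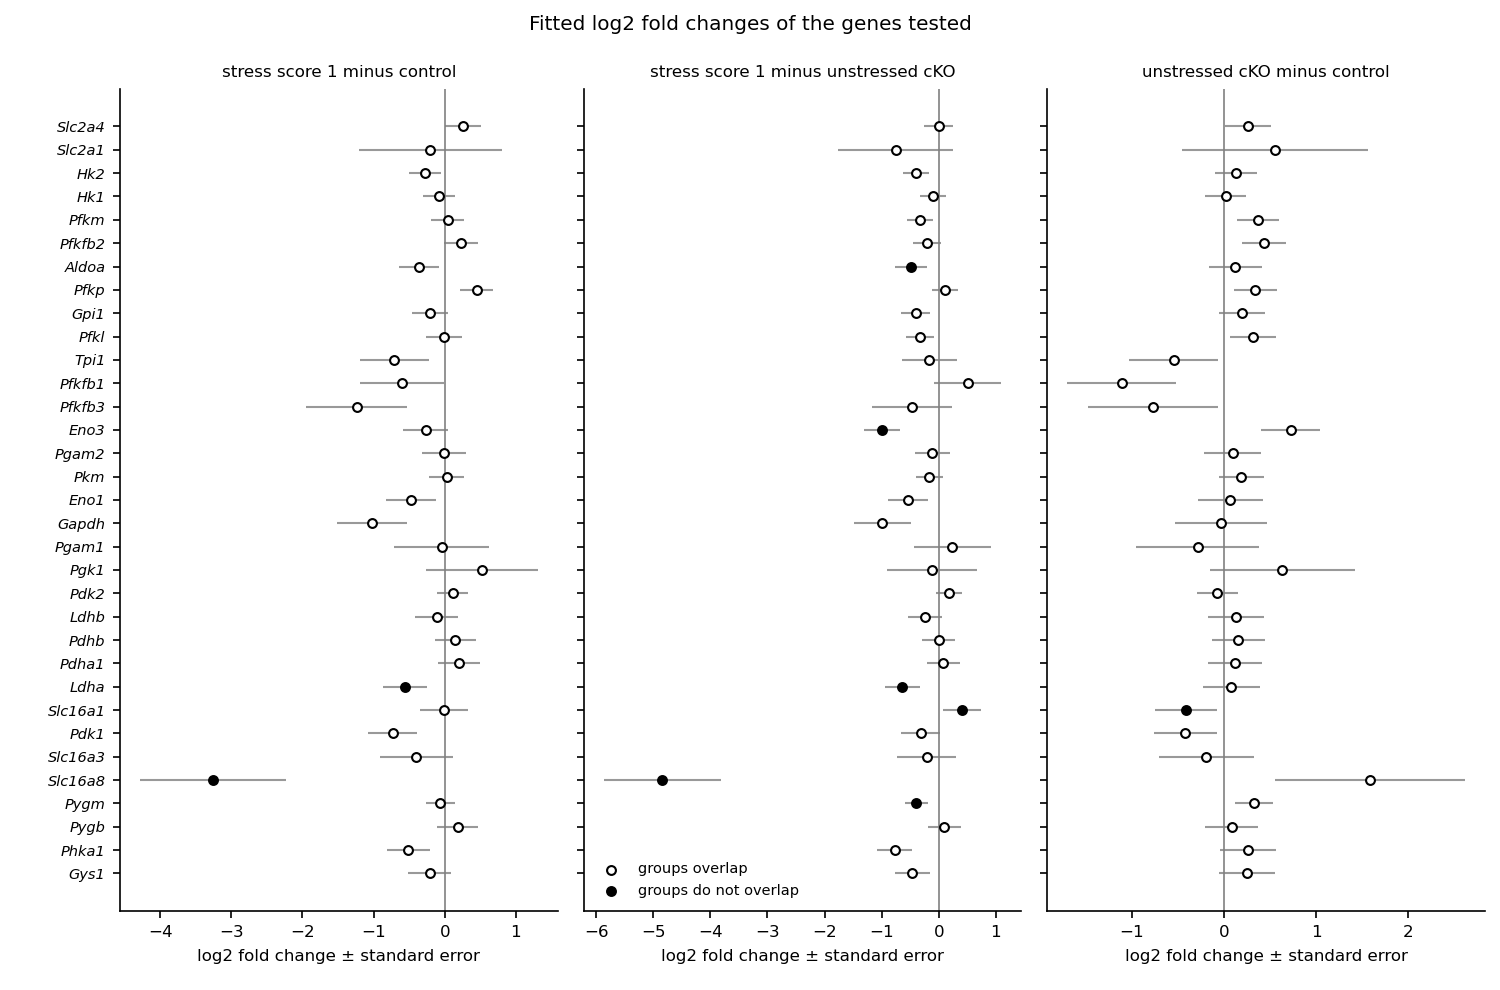
Fitted log2 fold changes with standard errors from limma for the 33 genes tested, in 3 comparisons with their own horizontal scales; filled points mark genes whose 2 groups do not overlap. Slc16a8 stands apart at -3.26 against control mice and -4.84 against unstressed cKO mice, most other genes lie between -1 and 1, and no gene passed an adjusted p of 0.05 in this fit. Slc16a8 reached the level for testing in U1, U2, U3 and C3 alone.

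The comparison of stressed with unstressed cKO mice holds the labelled genotype constant and asks about cardiac stress within it. The paper does not state the sex of the stressed cKO mice sequenced, and S3 alone of these mice belongs to number series B. By limma and by edgeR 0 of 33 genes passed the adjusted threshold, as did 0% of all genes, and DESeq2 called 1 lower (0.178% of all genes in either direction). At an unadjusted p under 0.05 limma gave 4 of 33 lower (Slc16a8, Eno3, Phka1 and Ldha) and 0 higher, beside 3.26% of all genes lower and 3.08% higher. The groups did not overlap for 6 of 33 genes (18.2%). Of these, 5 were lower in stressed cKO mice (Slc16a8, Eno3, Ldha, Pygm and Aldoa) and 1 was higher (Slc16a1), beside 6.04% of all genes lower and 5.31% higher. Fitted changes were above 0 for 7 of 33 genes, with a median of -0.24, beside 48.8% and -0.01 over all genes. U3 bore on these values, since it was the highest of the 9 libraries for 12 of 33 genes, where it was highest for 9.93% of all genes. S2, the other library with much mitochondrial ribosomal RNA, was the lowest for 8 of 33 genes (10.6% of all genes). Without U3 and S2, a choice made after seeing the data, the median was -0.09 and 12 of 33 genes were above 0. Leaving out U1 moved the values the other way, to a median of -0.48 with 6 genes above 0 and 10 of 33 lower at an unadjusted p under 0.05 by limma (2.72% of all genes lower). Without S1 the median was -0.39. The count lower at that p was 2 of 33 without U2, beside 334 of all 13454 genes. It was 1 of 33 without U3, beside 306 of all 13454 genes.

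Slc16a8 passed the adjusted threshold in this comparison by DESeq2 on the recovered reads (log2 fold change -6.95, adjusted p = 0.00668). By limma the log2 fold change was -4.84 (SE 1.03, adjusted p = 0.356), and edgeR gave an adjusted p of 0.393. For this gene only U1, U2, U3 and C3 reached the level needed for testing by limma and edgeR. Its entry into these tests thus rested mainly on the unstressed cKO mice, the group it is compared with here. The DESeq2 call was lost without S1 (adjusted p = 0.0820) and without U3 (0.218). Without U1, DESeq2 called 3 of the genes, where it called 0.316% of all genes, adding Eno3 (-1.31, adjusted p = 0.00996) and Phka1 (-1.16, adjusted p = 0.00882). Leukocyte markers were also lower in the stressed cKO mice, with a sum over 7 markers of 91.5 to 115 normalized counts against 162 to 184 in their unstressed counterparts and 132 to 269 in control mice, 4 of them at 0 in at least 1 library. Their part in the level of Slc16a8 was not tested.

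Eno3 had 1534, 2539 and 1996 normalized counts in stressed cKO mice and 2547, 3931 and 6105 in unstressed cKO mice. U1 at 2547 and S2 at 2539 almost touched, and U3 was far above the rest. The log2 fold change was -0.99 (SE 0.32, adjusted p = 0.729 by limma). Ldha had 155, 241 and 231 in stressed cKO mice against 257, 328 and 391 in unstressed cKO mice, a log2 fold change of -0.64 (SE 0.31, adjusted p = 0.779 by limma). Gapdh had 109, 50.4 and 50.6 in stressed cKO mice and 65.1, 187 and 183 in unstressed cKO mice, where U1 was within the range of the stressed cKO mice. Its log2 fold change was -0.99 (SE 0.49, adjusted p = 0.793 by limma). Aldoa, the muscle aldolase, had 669, 535 and 652 in stressed cKO mice and 728, 680.3 and 1293 in unstressed cKO mice. U1 and U2 were close to the stressed cKO mice and U3 alone was far above them, and the fitted change was -0.48 with all mice and -0.09 without U3 and S2.

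Of the glycogen genes, Phka1 on the X chromosome, the muscle regulatory subunit of the kinase that activates phosphorylase, had 1612, 1319 and 1139 normalized counts in stressed cKO mice and 1311, 2965 and 3089 in unstressed cKO mice. U2 and U3 were high while U1 lay among the stressed cKO mice, so the groups overlapped, and the log2 fold change was -0.77 (SE 0.30, adjusted p = 0.75 by limma). Pygm, which releases glucose from glycogen, had 2343, 2244 and 2445 in stressed cKO mice and 2526, 2965 and 3882 in unstressed cKO mice. The gap between S3 and U1 was small, and the log2 fold change of -0.39 (SE 0.21, adjusted p = 0.811 by limma) was -0.19 without U3 and S2. Slc16a1 (MCT1), the main lactate transporter of cardiomyocytes, was the 1 gene that ran the other way without overlap, with 217, 258 and 179 in stressed cKO mice and 164, 167 and 156 in unstressed cKO mice. Its log2 fold change was 0.41 (SE 0.34, adjusted p = 0.884 by limma).

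**Figure D4:**
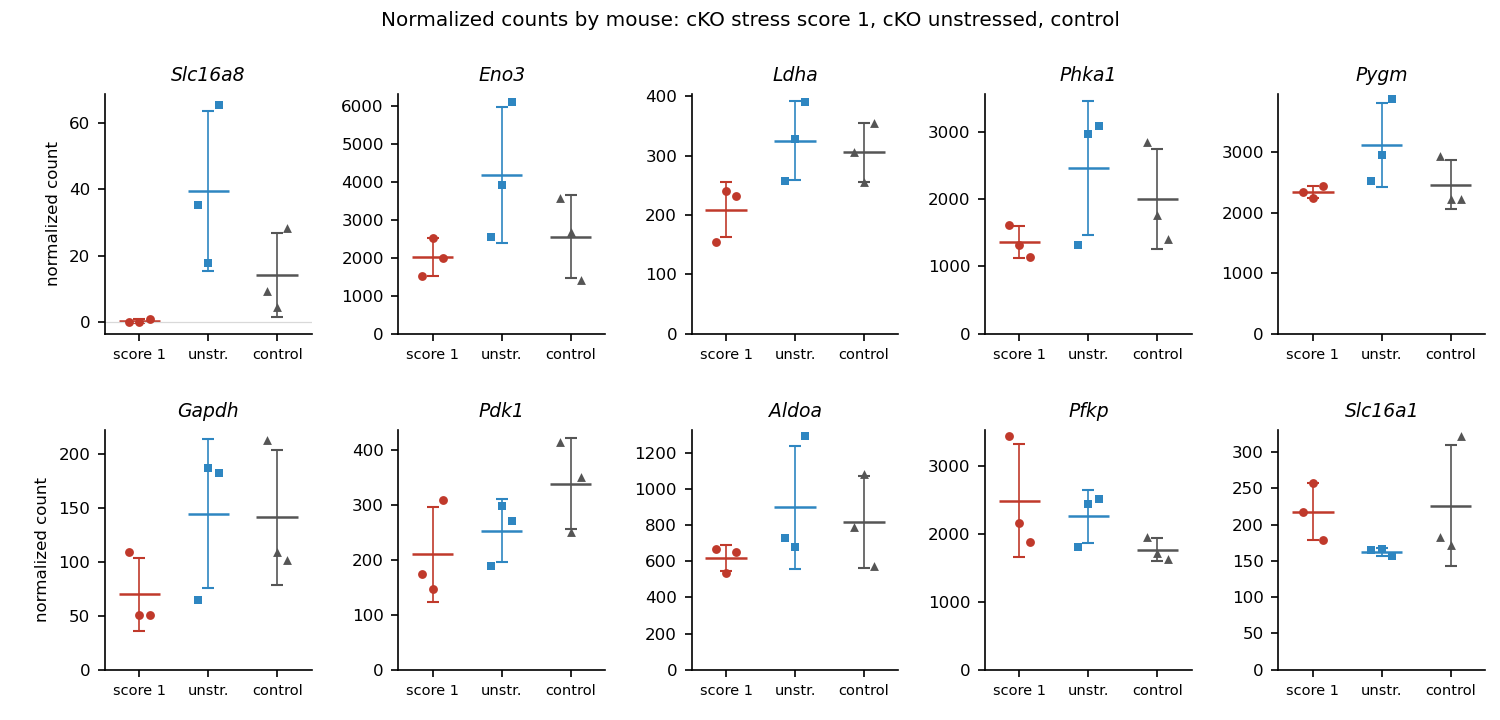
Normalized counts of 10 genes of the list in each mouse, on linear axes from 0; points are mice, bars are the mean and the SD of 3 mice, with stressed cKO mice (red circles) at the left, unstressed cKO mice (blue squares) in the middle and control mice (grey triangles) at the right. Slc16a8 lies at 0 to 0.937 in stressed cKO mice, Eno3 and Aldoa are widened by 1 high unstressed cKO mouse, and Pfkp by 1 high stressed cKO mouse.

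The comparison of unstressed cKO with control mice asks how cKO mice without cardiac stress differed from control mice, where sex cannot be told apart from genotype and all unstressed cKO mice but only 1 of 3 control mice belong to number series A. limma and edgeR called 0 of 33 genes (0% of all genes), and DESeq2 called 0 of 34 (0.0599% of all genes). At an unadjusted p under 0.05 limma gave 1 of 33 higher and 0 lower, beside 2.43% of all genes higher and 1.74% lower. Fitted changes were above 0 for 24 of 33 genes with a median of 0.13, beside 51% and 0.01 over all genes. Without U3 the median was 0.04 with 19 genes above 0, without C3 it was 0.06 and without U2 0.07. Without U1 it was 0.26, and limma gave an unadjusted p under 0.05 for 4 of 33 genes that were higher and 1 that was lower, beside 1.95% of all genes higher and 1.69% lower. The groups did not overlap for 1 of 33 genes, which was lower (3.03%), beside 5.36% of all genes lower and 5.19% higher. That gene was Slc16a1, with 164, 167 and 156 normalized counts in unstressed cKO mice and 183, 172 and 322 in control mice, where C3 was far above C1 and C2 (log2 fold change -0.41, SE 0.34, adjusted p = 0.9996 by limma).

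The gene with the smallest p was Eno3, with 2547, 3931 and 6105 normalized counts in unstressed cKO mice and 3577, 2692 and 1412 in control mice. The groups overlapped widely, and the log2 fold change was 0.72 (SE 0.32, adjusted p = 0.9996 by limma), or 0.14 against C1 alone within number series A. Pfkfb1, the liver and muscle isoform of the phosphofructokinase activator enzyme, had 92.4, 44.2 and 26.6 in unstressed cKO mice and 68.5, 139 and 119 in control mice, a log2 fold change of -1.11 (SE 0.59). Pfkfb2 had 2770.0, 3573 and 3217 in unstressed cKO mice and 2823, 2429.6 and 1895 in control mice, with U1 below C1. Pfkm had 1424, 1837 and 2141 in unstressed cKO mice and 1463, 1672 and 1065 in control mice, and Pygm 2526, 2965 and 3882 and 2937, 2227 and 2233. The log2 fold changes of these 3 were 0.43, 0.37 and 0.33. Slc16a8, with 35.4, 17.9 and 65.7 in unstressed cKO mice and 9.45, 4.49 and 28.5 in control mice, overlapped between U2 and C3 (log2 fold change 1.59, SE 1.03, adjusted p = 0.9996 by limma).

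Stressed cKO mice were also set against the 6 other mice together, which share those samples with the comparisons above. limma and edgeR called 0 of 33 genes, where each called 1 gene of 13454 (0.00743%), and at an unadjusted p under 0.05 limma gave 4 of 33 lower and 0 higher, beside 4.07% of all genes lower and 4.01% higher. Slc16a8 was again called by DESeq2 (log2 fold change -6.39, adjusted p = 0.00669, with 0.388% of genes called), at -4.05 (SE 0.92, adjusted p = 0.214) by limma. The DESeq2 call was lost without S1 (adjusted p = 0.0943) and without S2 (0.0536). Groups did not overlap for Slc16a8 and Ldha (6.06% of 33 genes, both lower, beside 1.75% of all genes lower and 1.72% higher), and within the number series the limma-scale difference of Slc16a8 was -4.72 in A and -2.72 in B. Phka1 (log2 fold change -0.64, SE 0.26), Gapdh (-1.004, SE 0.42), Ldha (-0.60, SE 0.26), Eno3 (-0.63, SE 0.31) and Pdk1 (-0.52, SE 0.30) had limma adjusted p-values of 0.561 to 0.667. The differences of Eno3 and Pdk1 were -0.96 and -0.82 within number series A and 0.03 and 0.06 within B. Fitted changes were above 0 for 10 of 33 genes (49% of all genes), and the median was -0.18, beside -0.01 over all genes, and -0.11 without U3 and S2. The count lower at an unadjusted p under 0.05 was 7 of 33 without U1 (3.85% of all genes lower). It was 2 without C1 and 1 each without U2 and without U3. Beside these, 455, 448 and 489 of all 13454 genes were lower without C1, U2 and U3.

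Of 79 other genes of the pathway, 69 were tested, and limma and edgeR called 0 of them in each of the 4 comparisons. At an unadjusted p under 0.05, limma gave 6 higher and 3 lower of 69 between stressed cKO and control mice (4.38% and 3.29% of all genes), and 4 higher and 3 lower between stressed and unstressed cKO mice (3.08% and 3.26%). It gave 4 higher and 4 lower between unstressed cKO and control mice (2.43% and 1.74%), and 6 higher and 3 lower between stressed cKO mice and the 6 other mice (4.01% and 4.07%). Irs2, an adaptor that couples the insulin receptor to glucose uptake, was higher in stressed cKO than in control mice by DESeq2 (adjusted p = 0.0338). It had 1418, 4887 and 2772 normalized counts in stressed cKO mice and 839, 1342 and 1032 in control mice, which did not overlap, with a limma log2 fold change of 1.35 (SE 0.42, adjusted p = 0.474). The DESeq2 call was lost without S2 (adjusted p = 0.275), without C1 (0.132) and without C3 (0.162), and U1 at 3787 was higher than S1 and S3. Gfpt2, the first enzyme of the hexosamine branch, had 344, 356 and 143 in stressed cKO mice, 231, 252 and 253 in unstressed cKO mice and 119, 93.3 and 121 in control mice, with both cKO groups above all control mice (log2 fold changes 1.23 and 1.14). S3 lay close to the control mice. By limma its adjusted p was no lower than 0.474 and 0.9996 in these comparisons, in which 5.8% and 5.19% of all genes were higher without overlap.

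Phkg1, the catalytic subunit of muscle phosphorylase kinase and partner of Phka1, had 13.5, 46.2 and 168 normalized counts in stressed cKO mice, 176, 130.1 and 166 in unstressed cKO mice and 188, 207 and 211 in control mice. S1 and S2 were low and S3 was near the other mice, and against the 6 other mice the log2 fold change was -1.87 (SE 0.51, adjusted p = 0.392 by limma), or -2.77 without S3 (adjusted p = 0.0404). Its exons overlap those of Sumf2 on the other strand. Hif1a, the regulated subunit of HIF-1, had 1785, 1168 and 1228 in stressed cKO mice, 791, 948 and 1031 in unstressed cKO mice and 863, 743 and 1014 in control mice. All 3 stressed cKO mice were above the 6 others, at a log2 fold change of 0.62 (SE 0.20, adjusted p = 0.437 by limma). Tbc1d4, which holds GLUT4 vesicles inside the cell until insulin acts, had 3072, 2171 and 2939 in stressed cKO mice, 2188, 1497 and 1550.1 in unstressed cKO mice and 1273, 2393 and 1862 in control mice. S2 lay just below U1, and the log2 fold change between stressed and unstressed cKO mice was 0.65 (SE 0.24, adjusted p = 0.75 by limma). The low-level transporter Slc2a12 had 0, 41.0 and 5.62 in stressed cKO mice, 16.0, 51.0 and 63.9 in unstressed cKO mice and 63.8, 26.9 and 30.4 in control mice. S2 lay among the other mice, and the log2 fold change between stressed and unstressed cKO mice was -2.56 (SE 1.04, adjusted p = 0.752 by limma). Ppargc1a, a coactivator of mitochondrial genes, had 12635, 9593 and 8337 in unstressed cKO mice and 11776, 47574 and 20345 in control mice, with C2 far above all others and C1 below U1 (log2 fold change -1.17, SE 0.39, adjusted p = 0.9996 by limma).

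Promoters are shown because part of the list is known to answer to HIF-1, whose core motif is ACGTG or GCGTG. RefSeq windows from 250 bases before to 50 after the start site (GRCm38.p6) were found for 33 of the 34 genes, all but Slc2a4, in 52 windows. These letters, on either strand, occurred in 38 of 52 windows (73.1%), against 43.8% of all 32851 windows. Some windows of a gene overlap and share sites, as for Aldoa and Eno1, so windows are not separate observations. By gene, 28 of 33 had a match in at least 1 window. The member windows were also richer in G and C, with a median of 60.3% against 52.7%, and the E-box CACGTG, which contains the core motif on both strands, occurred in 11.5% of them against 7.15% of all windows. The 3 windows shown belong to Ldha, which held more matches (7) than any other window of the list, to Pdk1, and to Slc16a8, which had none. Each CACGTG gave a match on both strands, and the Ldha window held 2 of them. A window of Hk1, with 0 CACGTG, held 5 matches. A second Pdk1 window, not shown, held 0 matches, and a second Ldha window, not shown, held 2. Each window shown is written 5′ to 3′ on the strand of the gene, with capitals marking the core motif on either strand.
Ldha, chr7:46845554-46845853, plus strand: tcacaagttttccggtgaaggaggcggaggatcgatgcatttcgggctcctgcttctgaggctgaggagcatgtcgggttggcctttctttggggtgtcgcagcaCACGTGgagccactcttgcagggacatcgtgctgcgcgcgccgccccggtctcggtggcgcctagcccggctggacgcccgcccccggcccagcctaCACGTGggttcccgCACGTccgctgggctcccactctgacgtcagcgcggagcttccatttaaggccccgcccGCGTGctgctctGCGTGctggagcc
Pdk1, chr2:71872974-71873273, plus strand: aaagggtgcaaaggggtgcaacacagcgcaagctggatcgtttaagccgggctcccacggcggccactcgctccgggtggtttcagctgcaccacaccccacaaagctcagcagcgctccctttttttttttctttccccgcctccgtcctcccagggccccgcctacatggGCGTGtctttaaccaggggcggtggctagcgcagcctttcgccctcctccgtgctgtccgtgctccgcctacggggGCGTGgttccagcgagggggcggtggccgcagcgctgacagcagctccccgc
Slc16a8, chr15:79254699-79254998, minus strand: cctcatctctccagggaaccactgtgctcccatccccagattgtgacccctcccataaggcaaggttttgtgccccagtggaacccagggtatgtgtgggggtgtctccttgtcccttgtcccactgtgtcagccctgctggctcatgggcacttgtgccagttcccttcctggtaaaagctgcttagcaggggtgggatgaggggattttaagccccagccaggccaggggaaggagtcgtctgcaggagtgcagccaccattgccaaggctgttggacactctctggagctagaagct
Ldha, with 7 matches in the window shown, and Slc16a8, with 0, were the genes whose stressed cKO mice lay below all 6 other mice. A match of letters is a description of the sequence and not a binding site.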

How the data were processed

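The data were nuclear RNA-seq profiles of 9 mice. The authors made amplified cDNA libraries (Ovation RNA-seq V2), sequenced them as single reads of 50 bases, aligned the reads with STAR to mm10 and normalized them with DESeq2. Which annotation and counter they used, and whether by strand, is not stated in the sources at hand. The deposited signal values are normalized read counts: each library's whole reads were divided by its own size factor, and all values (100%) gave whole reads at a tolerance of 0.001 once multiplied by it.

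Rows were matched to GENCODE release 21 for positions and exon lengths (40254 of 41128). Genes that reached 10 normalized counts in 3 or more libraries entered limma 3.58.1 (R 4.3.3) on log2(normalized count + 1), which understates changes of low genes. The 3 groups shared 1 fit (6 residual degrees of freedom), and stressed cKO mice were set against the 6 other mice in a second (7 degrees). P-values were Benjamini-Hochberg adjusted over all genes tested, with a threshold of 0.05. DESeq2 1.42.0 and edgeR 4.0.16 were run on the recovered reads as alternatives. edgeR used the same genes and groups as limma. DESeq2 was run without that count filter, so it tested all 34 listed genes. Between 2 groups it fitted only the libraries of those groups. Isoform ratios were compared by exact permutation tests (SciPy 1.17.1). Libraries were taken as separate mice from their labels, and p-values measure only the spread between these samples.

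The genes and lists were chosen with earlier results of these data known. Full values were given for genes called by any tool, the 6 of the list and the 3 other pathway genes with the smallest limma p per comparison, and listed genes without overlap among the 10 smallest p. Slc2a4, Hk2 and the glycogen genes between stressed cKO and control mice, and Slc16a1 between stressed and unstressed cKO mice, were added after their values were seen. One other pathway gene that this rule names is not reported here.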

Additional observations from a re-analysis of the deposited data

How the results depend on the processing

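The 39 gene comparisons that the rule for full values names were picked by p-values or calls in these data. All 727 alternative fold changes computed for them kept their direction. Some alternatives could not move a fold change, such as leaving out a mouse of a group not compared. Differences within number series were not counted among them. Against the 6 other mice these changed sign for Eno3 (-0.96 in A, 0.03 in B) and Pdk1 (-0.82 in A, 0.06 in B). Of the 727 alternatives, 4 passed the adjusted threshold: Irs2 and Slc16a8 (in both comparisons) by DESeq2, and Phkg1 without S3 by limma. Beyond these, DESeq2 with mice left out, run after seeing the data for Slc16a8 and Irs2, also called Eno3 and Phka1 between stressed and unstressed cKO mice without U1. Of the listed genes, 0 were called under limma and edgeR in each setting tried, while DESeq2 with all mice called 1 between stressed and unstressed cKO mice and 1 between stressed cKO mice and the 6 other mice. Over all genes, where limma called 0 in each pair of groups, DESeq2 called 29 between stressed cKO and control mice, 27 between stressed and unstressed cKO mice and 9 between unstressed cKO and control mice. Fitting only the groups compared gave 1 gene between stressed cKO and control mice and 4 between unstressed cKO and control mice. For unstressed cKO against control mice, quantile normalization gave 3 genes, a pseudocount of 5 gave 3, and the mouse number series as a covariate gave 4. Against the 6 other mice, where limma called 1 gene, DESeq2 called 58, TMM factors, quantile normalization and no filter 0 each, a pseudocount of 5 gave 2, the number series as a covariate 4, and leaving out U3 and S2 (chosen after seeing the data) 0. Leaving out each mouse in turn gave 0 to 3 genes between stressed cKO and control mice, 0 to 6 between stressed and unstressed cKO mice, 0 to 4 between unstressed cKO and control mice, and 0 to 3 against the 6 other mice. The cause of these differences was not tested.

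No paired analysis was possible because the labels carry no replicate numbers that the groups share. With 3 mice a group and Slc16a8 at 0 or 1 read per stressed cKO library, its ratio rests on few reads.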

Other observations

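Among other genes of the pathway, chosen here after their values were seen, Mlxipl (ChREBP), a transcription factor that responds to glucose metabolites, had 13294, 7510 and 5460 normalized counts in stressed cKO mice, 6702, 6534 and 7519 in unstressed cKO mice and 6023, 4603 and 2640 in control mice. S1 was high, and S3 lay between C1 and C2. Its log2 fold change between stressed cKO and control mice was 0.97 (SE 0.29, adjusted p = 0.474 by limma). Pdk4, a pyruvate dehydrogenase kinase induced by fasting and fatty acids, overlapped between these groups, with a log2 fold change of 0.57 (SE 0.35, adjusted p = 0.746 by limma).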
